A study of Mus musculus with 3 samples.

Results

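The genes described here are 10 transcriptional regulators of blood cell fate that lie outside the C/EBP family, which are Gfi1, Spi1, Irf8, Runx1, Myb, Klf4, Gata2, Gata1, Id1 and Id2. They were taken by name, 10 of the 27998 genes in the count matrices, and followed across bands of Mpo, in monocyte-like cells and across libraries. Mpo encodes myeloperoxidase, the azurophil granule enzyme that is made at the promyelocyte stage. CD133+ cells were sorted by FACS from the bone marrow of C57BL/6 mice (C57BL/6N in the study's text for a sort that was sequenced) and sequenced with the Chromium 3′ kit, which counts unique molecular identifiers (UMIs) from the 3′ end of transcripts. There were 3 libraries, labelled control (age 3 months), young (3 months) and old (27 months on the sample label, but 18.5 months in the design text, which also names intestine as the tissue). No treatment is given that separates the control library from the young one. The numbers of cells in the files match those in the study's text. By them, the control library is the study's first sequenced sort, and the young and old libraries belong to its later comparison of ages. Beside those cell numbers the study's text also gives 18.5 months for the old mice. Each library pooled the cells of 3 mice, so a condition is 1 library, and nothing between conditions could be tested.

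Granulocytes and monocytes arise from shared progenitors, and the choice between them is set by a small network of transcription factors. PU.1, the product of Spi1, is required by both lineages. IRF8 and KLF4 act on the monocyte side and GFI1, a repressor, on the neutrophil side. RUNX1 and MYB serve earlier progenitors, GATA2 and GATA1 serve stem cells, mast cells, basophils and erythroid cells, and the ID proteins have no DNA-binding region and hold E proteins away from DNA.

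Promoter windows are shown for Gfi1 and Irf8, whose levels ran in opposite directions in monocyte-like cells, and for the upstream start site of Runx1, the window with the most motif letters. Each runs from 250 bases before to 50 bases after a RefSeq start site on GRCm38.p6, 5′ to 3′ on the strand of the gene. Capitals mark letters of the motifs searched on both strands, which were GAGGAA for PU.1 and other ETS factors, TGTGGT for RUNX, AGATAA for GATA, AANNGAAA for IRF and AAATCA for GFI1. The windows of Gfi1 are chr5:107725756-107726055 and chr5:107724294-107724593, both on the minus strand. Those of Irf8 are chr8:120736108-120736407 and chr8:120738389-120738688 on the plus strand, and that of Runx1 is chr16:92826025-92826324 on the minus strand.
Gfi1 start 1: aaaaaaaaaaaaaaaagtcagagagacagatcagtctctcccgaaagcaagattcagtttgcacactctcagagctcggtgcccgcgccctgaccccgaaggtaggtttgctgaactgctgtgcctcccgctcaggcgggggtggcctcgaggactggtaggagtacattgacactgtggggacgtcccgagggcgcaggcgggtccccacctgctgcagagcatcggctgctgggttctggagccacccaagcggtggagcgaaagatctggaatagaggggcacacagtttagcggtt
Gfi1 start 2: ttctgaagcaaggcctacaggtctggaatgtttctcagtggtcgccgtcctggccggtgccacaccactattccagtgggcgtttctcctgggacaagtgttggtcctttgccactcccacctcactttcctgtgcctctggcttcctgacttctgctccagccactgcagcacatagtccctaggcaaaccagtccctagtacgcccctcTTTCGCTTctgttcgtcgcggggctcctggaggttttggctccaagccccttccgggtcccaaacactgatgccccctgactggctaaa
Irf8 start 1: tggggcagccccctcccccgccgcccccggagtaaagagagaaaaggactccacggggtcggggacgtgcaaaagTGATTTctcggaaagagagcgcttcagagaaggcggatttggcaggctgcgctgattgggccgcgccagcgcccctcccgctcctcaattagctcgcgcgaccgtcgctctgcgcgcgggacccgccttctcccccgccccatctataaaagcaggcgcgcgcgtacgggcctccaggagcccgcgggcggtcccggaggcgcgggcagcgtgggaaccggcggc
Irf8 start 2: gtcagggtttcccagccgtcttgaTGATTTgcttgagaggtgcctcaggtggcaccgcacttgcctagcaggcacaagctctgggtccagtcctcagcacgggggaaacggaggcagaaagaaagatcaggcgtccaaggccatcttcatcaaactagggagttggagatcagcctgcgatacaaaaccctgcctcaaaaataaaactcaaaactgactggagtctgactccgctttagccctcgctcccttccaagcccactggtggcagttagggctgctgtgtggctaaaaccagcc
Runx1 start 1: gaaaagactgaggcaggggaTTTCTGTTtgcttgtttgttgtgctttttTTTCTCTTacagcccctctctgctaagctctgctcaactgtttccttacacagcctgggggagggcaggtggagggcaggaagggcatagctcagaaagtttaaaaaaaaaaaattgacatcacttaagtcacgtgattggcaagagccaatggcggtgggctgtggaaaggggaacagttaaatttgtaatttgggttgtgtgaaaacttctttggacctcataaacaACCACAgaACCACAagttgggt

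Both Irf8 windows held the GFI1 letters on the opposite strand, at -175 to -170 and at -226 to -221 from the start. The second Gfi1 window held the IRF letters at -39 to -32, and its first window held none of the 5 motifs. Runx1 start 1 held the RUNX letters at 28 to 33 and at 36 to 41, and the IRF letters at -230 to -223 and at -201 to -194. No matches in these windows overlapped each other. Of 32851 promoters of the same length, 14.0% held the GFI1 letters, 23.9% the IRF letters, 16.8% the RUNX letters, 28.3% the ETS letters and 11.2% the GATA letters, so such matches are common. Of the members, 8 had a window in the RefSeq table. The remaining matches were the ETS letters in Runx1 start 2 and in Gata1, while the windows of Myb, Klf4, Gata2 and Id2 held none. A match describes letters and does not show that a factor binds there. In the GENCODE annotation of GRCm38 the genes lie at chr5:107716657-107726036 (Gfi1, minus strand), chr2:91082390-91115756 (Spi1, plus strand), chr8:120736358-120756694 (Irf8, plus strand), chr16:92601466-92826149 (Runx1, minus strand), chr10:21124935-21160984 (Myb, minus strand), chr4:55527143-55532466 (Klf4, minus strand), chr6:88193891-88207032 (Gata2, plus strand), chrX:7959260-7978071 (Gata1, minus strand), chr2:152736251-152737410 (Id1, plus strand) and chr12:25093799-25097140 (Id2, minus strand).

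After filtering, 9780 control, 7378 young and 9681 old cells were kept, with medians of 9560.5, 10174.5 and 12690 UMIs. The cells were divided into 5 bands by Mpo per 10000 UMIs, at 1, 5, 20 and 60. Cells with at least 6 UMIs of Ms4a6c, Csf1r and F13a1 together were set apart as monocyte-like, 530 of 26839 in all. They were 38 control cells (0.389%), 429 young cells (5.81%) and 63 old cells (0.651%). Their 7 check markers, which the rule did not use, summed to 1792, 2472 and 1991 UMIs per 1000000 UMIs (CPM) in the control, young and old libraries, against 5.90 to 31.8 CPM in the bands, and none was at 0. In cells set apart by dendritic genes (7, 51 and 2 cells) they summed to 1369, 1589 and 37.43 CPM. In NK and T-like cells (2, 61 and 1) they summed to 644.5, 289.8 and 84.59 CPM. The check therefore separates monocyte-like cells from the bands, but not clearly from dendritic-like cells. At the edge of the rule lay 1, 9 and 4 cells with 5 UMIs and 2, 10 and 1 cells with 6 UMIs. Of the monocyte-like cells, 2, 39 and 0 also met the rule for another cell type. In the young library they carried 919.9 CPM of basophil and mast genes and 1255 CPM of dendritic genes, against at most 10.55 and 121.8 CPM in the others. The labels and the study call the sorted cells endothelial-like, and the study reports lipoprotein and lectin uptake, tubular-like structures and blood flow recovery for them. After their injection it also reports donor-derived endothelial cells at injury sites and in heart and muscle. Of a cluster in public marrow data that it equates with CD133+ cells, the study states that CD31 and VE-cadherin were barely expressed. It also states that VEGFR2, encoded by Kdr, was highly expressed in CD133+ cells. Here 6 endothelial markers, Kdr among them, summed to 1.93 to 4.59 CPM over all kept cells. The 7 markers listed for maturing neutrophils held 209300 to 227400 CPM. That list includes S100a8 and S100a9, and it held 67630 to 76660 CPM in the band of highest Mpo too. No doublet caller was run, and 120 to 161 barcodes were shared between any pair of libraries.

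Levels are given as CPM of each sum of cells. Folds come from edgeR, which compares classes of cells within each library over 18 sums and rescales them by TMM factors (0.711 to 1.55). The scales differ between bands. Over 5604 genes of at least 10 CPM, the median log2 difference between the highest and the lowest band was -0.04 in the fit, 0.65 in CPM and 1.15 in UMIs per cell. For monocyte-like cells against the mean of the bands the medians were -0.09, 0.46 and 0.25. A gene was called when the adjusted p (Benjamini-Hochberg over all genes tested) was under 0.05 and the fold at least 1.5. The pooled mice are not separate replicates, and in such sums fewer expressing cells and less RNA per cell cannot be told apart. Intervals cover counting error only.

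**Figure D1:**
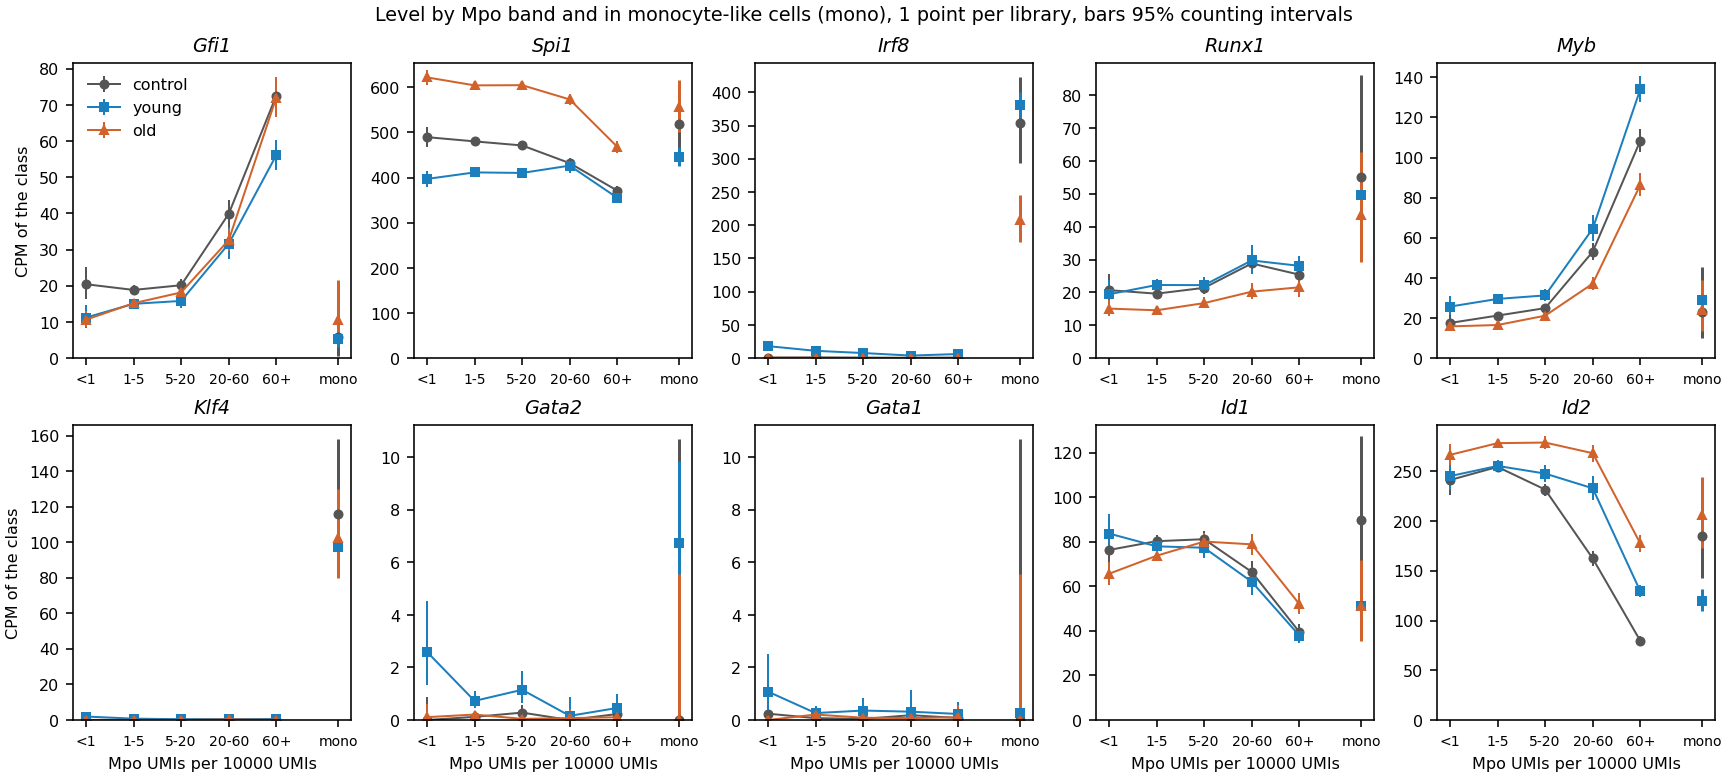
Level of each of the 10 genes in UMIs per 1000000 UMIs (CPM, linear axes that differ between genes) by Mpo band and in monocyte-like cells (mono), with 1 point per library and exact 95% intervals of counting error. Gfi1 and Myb stood highest at Mpo of 60 and over, Irf8 and Klf4 stood higher in monocyte-like cells than in any band, and Spi1 stayed between 355.3 and 622.1 CPM in the bands and monocyte-like cells.

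Across the Mpo bands Gfi1 and Myb rose with Mpo. Relative to the other genes, Spi1, Id1 and Id2 were lower in the highest band than in the lowest. By the adjusted p alone, edgeR called 6 of the 9 members tested for any difference over the bands, against 69.9% of 10855 genes. Between the highest and the lowest band 2 of the 9 rose and 5 fell, against 25.3% and 25.4% of all genes. Of the 5, Gata2 is a description only, since it met the filter on low counts through young sums, the lowest band among them. The median log2 fold of the 9 was -1.48, beside -0.01 for all genes. Without TMM the members split into 2 higher and 2 lower, and all genes into 5515 higher and 1118 lower. Gata1 had too few UMIs to be tested.

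Gfi1, the repressor of monocyte genes in granulocyte precursors, had 20.5 CPM in the control, 11.2 in the young and 10.6 in the old library at Mpo under 1. At Mpo of 60 and over it had 72.6, 56.1 and 72.1 CPM. The highest band stood above the band of 20 to 60 in all 3 libraries, and that band above the lower ones, with no overlap at either step. The lower bands overlapped. The difference between highest and lowest band was 1.62 ± 0.12 (log2, SE; edgeR adjusted p = 4.34e-10). In single libraries the log2 CPM ratio was 1.83 in control, 2.32 in young and 2.76 in old cells, and UMIs per cell went from 0.166 to 0.890, from 0.0968 to 0.669 and from 0.113 to 1.04. Cells with a Gfi1 UMI made up 14.9%, 8.75% and 10.1% of the lowest band and 53.2%, 45.8% and 58.6% of the highest. With every cell thinned to 3000 UMIs these shares were 2.42% to 6.26% and 17.1% to 19.4%. NK and T-like cells of the young library had a share of 13.1% (8 of 61 cells).

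Myb, the progenitor factor of proliferating blood cells, rose in all 3 libraries, with log2 CPM ratios of 2.63 in control, 2.38 in young and 2.45 in old cells. It had 17.6, 25.7 and 15.9 CPM in the control, young and old libraries at Mpo under 1, and 108.4, 134.0 and 86.4 CPM at Mpo of 60 and over. Its levels in the upper bands did not overlap with each other or with those below. The log2 fold was 1.78 ± 0.10 (SE; edgeR adjusted p = 2.81e-12). The young library was highest and the old library lowest in every band. Thinned to 3000 UMIs, the share of cells with a Myb UMI went from 3.52%, 6.70% and 5.31% to 28.4%, 32.1% and 20.8% in the control, young and old libraries.

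Runx1 encodes a core-binding factor needed for definitive blood formation. It had 20.7, 19.5 and 15.1 CPM in the control, young and old libraries in the lowest band and 25.4, 28.1 and 21.6 CPM in the highest. The lowest and highest bands did not overlap, but neighbouring bands did. Its direction depended on the scale, since the log2 fold was -0.24 ± 0.10 with TMM (edgeR adjusted p = 0.0372, not past the fold limit) and 0.44 without it. The log2 CPM ratios were 0.30, 0.53 and 0.52 in the single libraries.

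Spi1 encodes PU.1, the ETS factor that both myeloid lineages need, and it was found in 91.4% to 98.7% of cells of the lowest and highest bands. It had 489.7, 397.1 and 622.1 CPM at Mpo under 1 and 371.2, 355.3 and 468.2 CPM at Mpo of 60 and over in the control, young and old libraries. Every neighbouring pair of bands overlapped, and the old library was highest and the young library lowest in each of them. The mean CPM of the libraries, from the lowest to the highest band, was 503.0, 498.7, 495.5, 477.3 and 398.2. The fit gave a log2 fold of -1.01 ± 0.08 (SE; edgeR adjusted p = 9.6e-10), against log2 CPM ratios of -0.40, -0.16 and -0.41, and UMIs per cell turned the other way, from 3.98 to 4.55, from 3.42 to 4.24 and from 6.61 to 6.79. Without TMM the fold was -0.33 and below the limit. Hence Spi1 fell relative to other genes, while its UMIs per cell did not fall.

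Id1 and Id2 encode inhibitors of E proteins. Id1 had 76.3, 83.7 and 65.6 CPM in the lowest band and 39.5, 37.9 and 52.0 CPM in the highest (log2 fold -1.48 ± 0.11, edgeR adjusted p = 2.39e-10). Id2 had 241.4, 245.3 and 266.7 CPM in the lowest and 79.6, 129.5 and 177.6 CPM in the highest (log2 fold -1.69 ± 0.15, edgeR adjusted p = 2.54e-09). For both genes the lowest and highest bands did not overlap. From the lowest to the highest band the mean CPM was 75.18, 77.26, 79.48, 69.09 and 43.15 for Id1. For Id2 it was 251.1, 262.9, 252.9, 221.3 and 128.9. In CPM the fall thus lay in the bands of Mpo of 20 and over. The fall of Id2 was deepest in the control library, with a log2 CPM ratio of -1.60, then -0.92 in the young and -0.59 in the old library. In UMIs per cell Id2 still fell in all 3 libraries, but Id1 fell in the control and young libraries and went from 0.697 to 0.754 in the old one.

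Irf8 and Gata2 passed the limit downward on few UMIs. Irf8 had 0.963, 18.2 and 0.652 CPM in the lowest band and 0.996, 6.28 and 0.209 CPM in the highest, so the young library alone stood high. Of its 84 UMIs in the lowest young band, 60 (71.4%) came from 3 cells. The fit gave -1.93 ± 0.80 (log2, SE; edgeR adjusted p = 0.0388) and -1.11 without the young library (adjusted p = 0.175). Gata2 gave -2.24 ± 0.75 (log2, SE), with 12 UMIs in the lowest young band and at most 1 in the others, and it could not be tested without the young library. It met the filter on low counts through young sums, the lowest band and the monocyte-like cells among them, so the value is a description. Neither call held without TMM. Klf4 was at or below 1.95 CPM in every band and gave -1.61 ± 1.17 (edgeR adjusted p = 0.233), which turned to 3.85 without the young library.

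**Figure D2:**
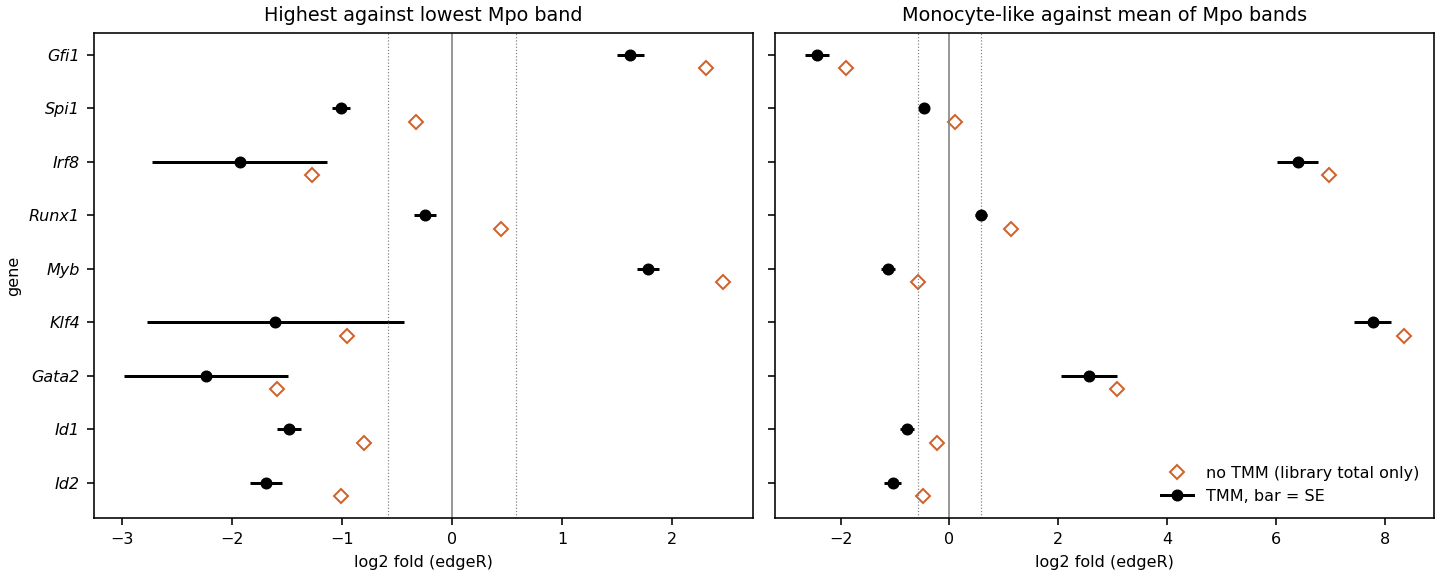
Log2 folds from edgeR for the 9 members tested (points with TMM, bars the standard error; open diamonds without TMM; dotted lines a fold of 1.5), for the highest against the lowest Mpo band and for monocyte-like cells against the mean of the bands. Gfi1 and Myb had positive values in the first and negative values in the second, and Klf4 and Irf8 had the highest values in the second (7.78 and 6.40).

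Monocyte-like cells were marked by Klf4 and Irf8 and were low in Gfi1. Against the mean of the bands 3 of the 9 members tested were higher (Klf4, Irf8 and Gata2) and 4 lower, against 19.0% and 15.1% of all genes. The members had a median log2 fold of -0.46 and all genes of 0.01. Without TMM the median of the members changed sign to 0.11, and they split into 4 higher and 2 lower, with 4552 and 644 of all genes. Against the highest Mpo band 4 members were higher and 2 lower, with 19.7% and 17.4% of all genes. Both comparisons use the same libraries and cells. In both, Klf4 and Gata2 met the filter on low counts through the monocyte-like sums, so their place among the higher members is a description.

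Klf4, a zinc-finger factor of monocyte differentiation, had 116.0, 97.2 and 102.5 CPM in monocyte-like cells of the control, young and old libraries. In every band it was at most 0.288 CPM in control and old cells and 0.432 to 1.95 CPM in young cells, so the classes did not overlap. The fitted log2 difference was 7.78 ± 0.34 (SE), and 7.17 to 9.94 when 1 library was left out. It depends on bands with few or no UMIs, and Klf4 met the filter on low counts through the monocyte-like sums, so the value is a description. These cells held 40 of the 54 Klf4 UMIs of the control library (74.1%, exact 95% interval 60.3 to 85.0), 375 of 437 in the young (85.8%, 82.2 to 88.9) and 68 of 79 in the old (86.1%, 76.5 to 92.8). A Klf4 UMI was found in 57.9%, 42.0% and 49.2% of monocyte-like cells, or 28.9%, 18.9% and 20.6% when thinned to 3000 UMIs. In the young library a Klf4 UMI was found in 5.88% of dendritic-like, 4.62% of B progenitor-like and 0 of 61 NK and T-like cells (exact 95% upper limit 5.87%, for cells with a UMI and not for cells that express the gene).

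Irf8, the interferon regulatory factor of monocyte and dendritic progenitors, had 353.7, 381.1 and 208.0 CPM in monocyte-like cells of the control, young and old libraries. In the control library 1 cell held 44 of the 122 UMIs. No band reached above 18.2 CPM. The fold was 6.40 ± 0.37 (log2, SE; edgeR adjusted p = 7.6e-12), and 5.71 to 8.17 when 1 library was left out. Monocyte-like cells held 42.4% (36.6 to 48.3), 48.4% (46.6 to 50.2) and 71.9% (64.9 to 78.1) of all Irf8 UMIs. Dendritic-like cells, which had 1277 CPM in 7 control cells, 2483 in 51 young cells and 37.4 in 2 old cells, held a further 19.1%, 24.0% and 0.521%. Irf8 UMIs were seen in 63.2%, 73.2% and 68.3% of monocyte-like cells, against 1 of 20 young erythroid-like cells (5.0%). Other young classes carried it too, with shares of 88.2% in dendritic-like, 58.5% in B progenitor-like and 37.7% in NK and T-like cells. In the bands of lowest and highest Mpo the share was 5.03% and 5.66% in young cells and at most 0.845% in the others.

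**Figure D3:**
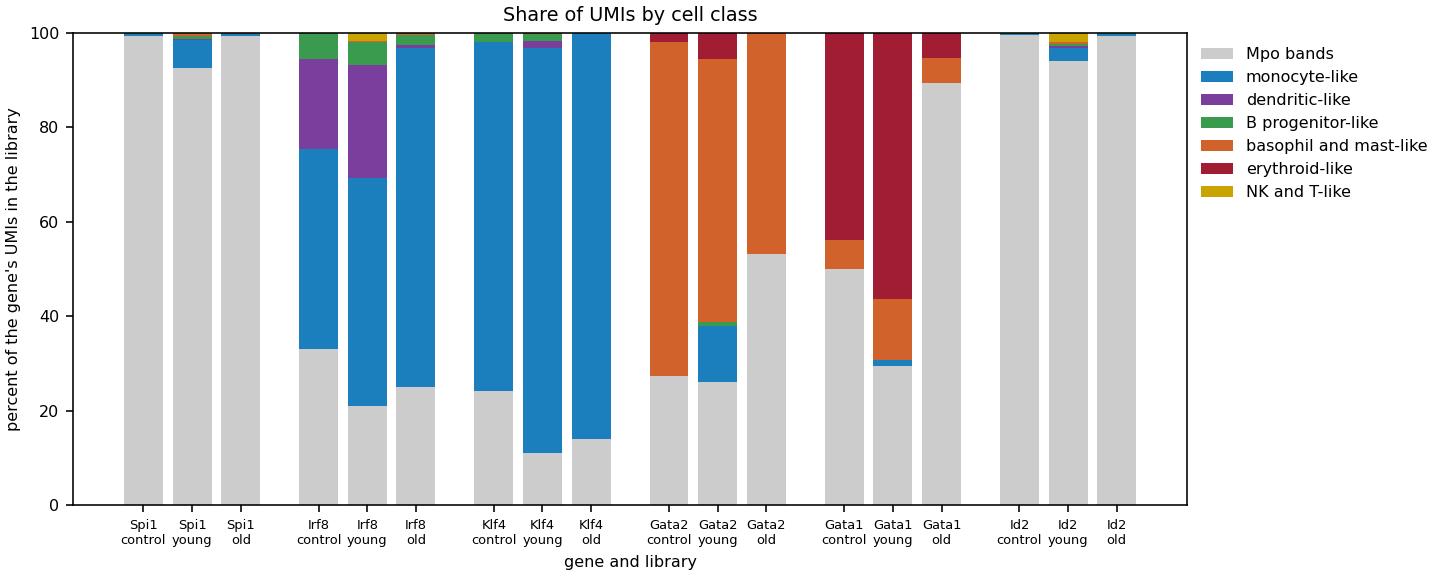
Percentage of the UMIs of 6 members (Spi1, Irf8, Klf4, Gata2, Gata1 and Id2) that lay in each class of cells, as stacked bars with 1 bar per library. Monocyte-like cells held 74.1% to 86.1% of Klf4 and 42.4% to 71.9% of Irf8, and basophil and mast-like cells held 46.9% to 70.9% of Gata2.

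Gfi1 had only 5.80, 5.19 and 10.6 CPM in monocyte-like cells, from 2, 20 and 7 UMIs. Its level lay below the lowest band in each library, although the old values of 10.55 and 10.64 were close, and the log2 fold against the mean of the bands was -2.44 ± 0.22 (SE; edgeR adjusted p = 9.69e-09). Against the highest band it was -3.47 (adjusted p = 3.68e-11). Myb had 23.2, 29.0 and 24.1 CPM in these cells, near the middle bands, and was lower than the mean of the bands by edgeR (log2 fold -1.12 ± 0.13, adjusted p = 2.12e-07). Median Mpo in monocyte-like cells was 2.75, 3.67 and 3.37 per 10000 UMIs, within the second band. Mpo was under 20 in 32 of 38, 377 of 429 and 57 of 63 of them, so some had high Mpo. Markers listed for promyelocytes, Mpo among them, summed to 9763, 6421 and 8758 CPM in monocyte-like cells. They summed to 3409, 2546 and 2701 CPM in the second band and 7980, 7268 and 9301 CPM in the third.

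Runx1 had 55.1, 49.8 and 43.7 CPM in monocyte-like cells, above its highest level in any band, 29.7 CPM. Its log2 fold was 0.58 ± 0.10 against the mean of the bands (edgeR adjusted p = 8.75e-05), just short of the fold limit, and 0.76 against the highest band (adjusted p = 1.55e-05), where it was called; without TMM it was called against the mean of the bands too (1.13). Spi1 had 518.9, 445.9 and 556.1 CPM, overlapping every band. Its fold of -0.46 ± 0.07 (edgeR adjusted p = 1.73e-05) did not pass the limit and changed sign to 0.11 without TMM. So the level of PU.1 transcript did not separate these cells from the bands.

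Id1 had 89.9, 51.3 and 51.2 CPM in monocyte-like cells and Id2 had 185.5, 120.0 and 206.5 CPM. Both were called lower than the mean of the bands (log2 folds -0.78 ± 0.13 and -1.04 ± 0.15, edgeR adjusted p = 3.06e-05 and 6.57e-06), but their levels overlapped those of the bands and neither call held without TMM (-0.24 and -0.49). Against the highest band neither was called (0.27 and 0.14, adjusted p = 0.144 and 0.529).

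Gata2, a factor of stem cells, mast cells and basophils, passed the limit upward in monocyte-like cells (log2 fold 2.56 ± 0.52, SE). All 26 UMIs lay in 9 young cells, 3 of which held 19 (73.1%). Gata2 met the filter on low counts through the young monocyte-like sum, so the value is a description. Without cells that also met another rule the log2 fold was 0.34 (adjusted p = 0.76), and in the control and old libraries the count was 0. In basophil and mast-like cells it had 351.0 CPM in 13 control cells, 373.8 in 32 young cells and 83.1 in 12 old cells. Those cells held 70.9% (57.1 to 82.4), 55.7% (48.9 to 62.4) and 46.9% (29.1 to 65.3) of its UMIs, and no test was run because control and old had under 20 cells. Gata1, the erythroid and megakaryocyte factor, reached 150.1 CPM in 5 control, 159.9 in 20 young and 73.9 in 1 old erythroid-like cell, from 7, 44 and 1 UMIs. In every band it was at most 1.08 CPM.

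At the low end of Mpo, cells with at least 10 UMIs of Retnlg and Mmp8 per 10000, genes of late neutrophil maturation, were compared with the others in 6 sums. No member was called by edgeR with TMM or by DESeq2, against 12.3% of 10401 genes higher and 10.3% lower. Of the 8 tested, 4 had an unadjusted p under 0.05, and the same 4 an adjusted p under 0.05 with folds below the limit. Without TMM 2 members were called lower, beside 817 genes higher and 1939 lower. Spi1 went from 478.6 to 536.2 CPM in the control, from 401.3 to 489.1 in the young and from 575.5 to 675.9 in the old library (log2 fold 0.42 ± 0.05, edgeR adjusted p = 4.92e-07). Its UMIs per cell went the other way, with log2 ratios of -0.49, -0.30 and -0.22 in these libraries. Id1 went from 81.3 to 47.8, from 81.5 to 51.3 and from 81.5 to 53.0 CPM (-0.47 ± 0.08, edgeR adjusted p = 1.8e-05). Gfi1 gave -0.46 ± 0.13 (adjusted p = 0.00426) and Id2 -0.25 ± 0.07 (adjusted p = 0.00308). All 6 genes of a cell cycle list were lower in the late cells, with a median log2 fold of -1.02. The late cells were 338, 493 and 2357 in the control, young and old libraries, and their median UMIs were 5011.5, 5539 and 9029, against 9327.5, 9982 and 13087 in the others.

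Partners and relatives of the members were taken from lists of family and partner genes, chosen with earlier results of these data known. Their counts stand beside 25.3% of all genes higher and 25.4% lower between the highest and lowest band, or 5515 higher and 1118 lower of 10852 without TMM. Of the 4 RUNX complex genes tested between the highest and lowest band, 2 rose and none fell (median log2 fold 0.63), and without TMM 3 rose. Cbfa2t3, the ETO-family corepressor, went from 0.481, 2.38 and 0.326 CPM to 12.9, 17.2 and 10.6 CPM (3.12 ± 0.34, edgeR adjusted p = 8.62e-08), and it stood at 58.0, 61.4 and 21.1 CPM in monocyte-like cells. Of the 5 GFI1 corepressor genes tested, 3 rose (median 0.65), among them Ehmt2, a histone H3 lysine 9 methyltransferase, at 1.11 ± 0.16 (adjusted p = 3.74e-06), and Kdm1a, the demethylase LSD1, at 0.66 ± 0.17 (adjusted p = 0.00231).

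Against the same shares of all genes, among 10 ETS genes 2 rose and 3 fell (median -0.39, but 0.30 without TMM), with Ets1 at -1.41 ± 0.13 (edgeR adjusted p = 7.3e-09) and Erg at -1.35 ± 0.15 (adjusted p = 1.68e-07). Of 8 KLF genes 7 fell and none rose, with a median of -1.68, and 6 fell without TMM. Klf2, a quiescence factor, went from 82.3, 78.5 and 164.0 CPM to 6.66, 12.1 and 20.5 CPM (-3.77 ± 0.19, edgeR adjusted p = 6.66e-13). Of 6 IRF genes 4 fell and none rose (median -1.26), and of 4 MYB family and coactivator genes 1 rose and 3 fell (median -0.92). Mybl2 rose by 0.95 ± 0.11 (adjusted p = 2.98e-07). Of 5 GATA partner genes 1 rose, which was Lmo2 at 0.95 ± 0.09 (adjusted p = 7.54e-09), and none of 3 E protein and Id genes passed. Of 9 cytokine receptor genes 1 rose and 2 fell, with Kit at 1.45 ± 0.24 (adjusted p = 1.74e-05). Of 6 cell cycle genes 1 rose and 4 fell (median -1.13), with Mki67 at -1.32 ± 0.12 (adjusted p = 7.39e-09), and their part in the differences of the members was not tested. Without TMM the median of the receptor list also changed sign, from -0.52 to 0.18, and the counts of higher and lower genes were 1 and 3 for IRF, 1 and 1 for MYB, 2 and 2 for the cell cycle, 4 and 0 for GATA partners and 3 and 0 for E proteins and Id, where 5515 of 10852 genes were higher.

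In monocyte-like cells 4 of the 6 IRF genes were higher and none lower, with a median log2 fold of 0.91. The counts of this and the following lists stand beside 19.0% of all genes higher and 15.1% lower, or 4552 and 644 of 10852 without TMM. Irf5 reached 130.0, 164.0 and 119.0 CPM (6.88 ± 0.23, edgeR adjusted p = 1.09e-15). Irf7 reached 515.0 CPM in young monocyte-like cells against 31.9 and 16.6 CPM in control and old cells (2.68 ± 0.21, adjusted p = 7.72e-10), and in the lowest band it was likewise high in the young library alone, at 77.2 against 5.05 and 9.34 CPM. The receptor list had 4 higher and 2 lower of 9, led by Ccr2, the chemokine receptor of classical monocytes (7.89 ± 0.22, adjusted p = 6.17e-17). Of 3 E protein and Id genes tested 2 were higher, with Tcf4 at 2.69 ± 0.18 (adjusted p = 1.12e-10). Of 10 ETS genes 4 were higher and 5 lower, and of 8 KLF genes 3 were higher and 2 lower. The RUNX complex had 2 higher of 4, the MYB family list 1 higher and 1 lower of 4, the GFI1 corepressors 1 higher of 5, the GATA partners none of 5 and the cell cycle list 1 lower of 6. Without TMM the medians of 4 lists changed sign in monocyte-like cells, from -0.36 to 0.17 for ETS, from -0.34 to 0.20 for GATA partners, from -0.20 to 0.35 for GFI1 corepressors and from -0.11 to 0.45 for the cell cycle, and the cell cycle list then had 2 higher and none lower.

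Over the 21 sums of library and class, the patterns most like each member were described by Pearson's r of log2(CPM + 1) among 5804 genes. The classes were the Mpo bands, monocyte-like cells and basophil and mast-like cells. Erythroid-like, dendritic-like, B progenitor-like and NK and T-like cells were left out. Gata1 and Irf8 had their highest mean CPM in classes left out, 128.0 in erythroid-like and 1266 in dendritic-like cells. The sums share libraries, so r is only a description. Gfi1 was most like Prodh (0.929), Tmem53 (0.924) and Msantd3 (0.919), and Myb most like Impdh1 (0.959), 2510002D24Rik (0.943) and Gtf2i (0.932). Irf8 went with Mndal (0.974), Ms4a4c (0.970) and Pyhin1 (0.960), and Klf4 with Ccdc109b (0.994), Irf5 (0.991) and Tmem109 (0.988). For Gata2 they were Csrp3 (0.996), Fcer1a (0.995), a gene of the basophil and mast rule, and Cd200r3 (0.994). For Gata1 they were Itga2b (0.957), Gata2 (0.957) and Cd200r3 (0.954). Gata1 had only 1, 10 and 1 UMIs in basophil and mast-like cells of the control, young and old libraries. Its likeness over sums that include erythroid-like cells was not tested. Spi1 had Fbxl5 (0.945), Skap2 (0.930) and Anxa7 (0.913), and Runx1 had Herc1 (0.973), Trmt1l (0.929) and Tm2d1 (0.928). Id2 was closest to Rdh12 (0.905), 1110008P14Rik (0.903) and Cib2 (0.892), and Id1 to Spc25 (0.860), Lmo4 (0.812) and Depdc1a (0.796).

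**Figure D4:**
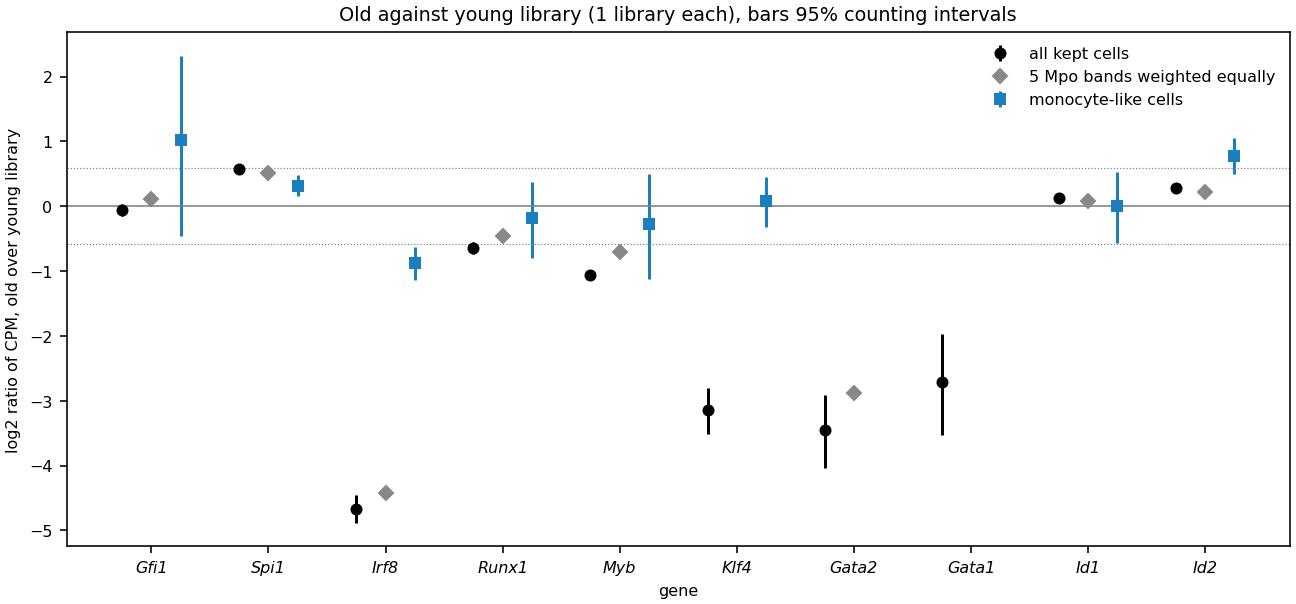
Log2 ratio of CPM of the old over the young library for each member, over all kept cells (circles), as the mean of the 5 Mpo bands with equal weight (diamonds) and within monocyte-like cells (squares), with exact 95% intervals of counting error for circles and squares and dotted lines at a fold of 1.5. Over all kept cells Irf8, Klf4, Gata2 and Gata1 stood lowest, with ratios from -4.66 to -2.72.

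Between libraries the level of Spi1 was 457.3 CPM in control, 395.1 in young and 590.5 in old cells, an order found in every band. Old over young it was 0.58 higher on the log2 scale (95% interval 0.56 to 0.60), or 0.52 with equal weight for the bands. Of the 7 members of at least 10 CPM, 0 were at least 1.5 times higher and 3 lower in old over young, where 4.36% of 5761 genes were higher and 14.7% lower and the median log2 ratio was -0.15. These ratios are not rescaled, and with TMM factors over the libraries Spi1 passed the limit upward (0.81) and Runx1 no longer passed it (-0.41). Old over control had 0 past the limit either way (5.37% and 8.78% of 5470 genes), and control over young had 1 lower (1.59% of 5728 genes higher and 6.62% lower). These ratios share libraries, and age, mice, sort and library cannot be told apart. The ratios that use the control library also compare sorts that the study reports as separate experiments.

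The 3 members lower in old than young cells were Irf8, Runx1 and Myb. Irf8 had 3.00, 40.7 and 1.61 CPM in all control, young and old cells, a log2 ratio of -4.66 (-4.88 to -4.45) in old over young and of -3.76 (-3.94 to -3.59) in control over young. With the bands weighted equally, which leaves out the monocyte-like cells, these ratios were -4.42 and -3.26. Within monocyte-like cells control over young was -0.11 (-0.39 to 0.16), old over young -0.87 (-1.14 to -0.62) and old over control -0.77 (-1.13 to -0.40). The control value rests on few cells, since 98 of its 122 UMIs lay in 6 of 38 cells and 1 cell held 44. The dendritic genes in these cells stood at 121.8, 1255 and 9.04 CPM in the control, young and old libraries, and their part in the ratios was not tested. Klf4 differed by 0.08 (-0.32 to 0.45) in old over young within those cells, although over all cells it had 0.563, 5.85 and 0.661 CPM. The share of monocyte-like cells was likewise highest in the young library (5.81%), and so was the level of Irf8 in each band. In the young band of Mpo 1 to 5, 180 of 336 Irf8 UMIs lay in 7 cells. Dendritic genes in the bands were also highest in the young library, at 22.6 to 27.7 CPM against 5.29 to 19.7 CPM. The same held in each band for the genes of the NK and T, B progenitor, erythroid, and basophil and mast rules. Those of NK and T cells stood at 10.03 to 11.24 CPM in the young library against 0.2172 to 1.444 CPM. The part of these cells and genes in the ratios was not tested.

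Runx1 had 22.2, 25.6 and 16.4 CPM over all control, young and old cells, and Myb 37.8, 53.3 and 25.5 CPM. Old over young, Runx1 was -0.64 (-0.73 to -0.55) and Myb -1.06 (-1.13 to -0.99), and -0.46 and -0.71 with the bands weighted equally. The Myb interval lay below 0 in each band, and the Runx1 interval in all but the lowest. Mpo still differed within a band, with a median in the highest of 99.5 per 10000 UMIs in young and 77.0 in old cells. The part of this in the ratios was not tested. Gfi1 had 29.0, 22.9 and 22.0 CPM and differed by -0.06 (-0.15 to 0.03) in old over young. In the highest band its ratio was 0.36 (0.21 to 0.51), while the intervals of the other bands held 0. Id1 had 73.1, 66.6 and 73.0 CPM over all cells. Its old over young ratio went from -0.35 (-0.54 to -0.16) in the lowest band to 0.46 (0.27 to 0.64) in the highest, so the bands ran in opposite directions.

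Id2 had 213.0, 220.4 and 267.8 CPM. Its old over control difference grew with Mpo, from 0.14 (0.04 to 0.25) in the lowest band to 0.72 (0.64 to 0.81) at Mpo of 20 to 60 and 1.16 (1.04 to 1.27) at 60 and over. Old over young it ran from 0.12 (0.02 to 0.22) to 0.46 (0.36 to 0.55). The control library also differed from the young one in the highest band, 79.6 against 129.5 CPM, so libraries of one labelled age were not alike. Gata2 and Gata1 had 0.573, 2.93 and 0.268 CPM and 0.167, 1.04 and 0.159 CPM over all cells, highest in the young library. Basophil and mast-like and erythroid-like cells were also most numerous there, with 32 and 20 cells. In the lowest band, which leaves these cells out, Gata2 had 2.59 CPM in young and 0.109 in old cells, from 12 UMIs and 1 UMI. The part of these cells in the ratios was not tested.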

How the data were processed

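The authors deposited UMI counts per gene and cell for 3 libraries, made with STAR and Cell Ranger 2.1.0 on mm10 (per the submitters' processing notes). The counts were raw, with no normalization, and held 108985799, 81434722 and 138030352 UMIs in the control, young and old libraries. Cells with at least 200 genes, at most 20% mitochondrial UMIs and UMI counts within the 5th to 95th percentile (control alone, young and old jointly) were kept. Groups were taken from sample titles.

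Counts were summed per library and class and tested with edgeR 4.0.16 (quasi-likelihood, TMM, filterByExpr, library as a block) in R 4.3.3, with DESeq2 1.42.0 as an alternative. A class under 20 cells was left out. The SE of an edgeR fold was taken as the absolute log2 fold over the square root of the F statistic of its test. Libraries served as replicates of differences between classes, never of conditions. Ratios between libraries have exact binomial intervals (95%). The fit was checked on simulated sums in which few genes changed, equally up and down. That check does not bear on the TMM scale between bands, where many more genes differed. The 10 members and the gene lists were chosen with earlier results of these data known. Named list genes were, per list, at most the 2 with the largest fold among those called in each of 2 comparisons, and at most 3 genes with the highest correlation for each member. Whether opposite-strand reads were counted is not given in the sources used here, and Gfi1, Runx1 and Myb overlap antisense genes. Irf8 overlaps a gene on the same strand. The sums, intervals and figures were made with matplotlib 3.10.9, pandas 2.3.3, scipy 1.17.1 and numpy 2.4.6 (Python 3.11.15). The depth of each sum sets the exact interval of its levels.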

Additional observations from a re-analysis of the deposited data

Results flagged for a closer look

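The filter on UMI counts removed 1089 control, 984 young and 916 old cells, which enter none of the comparisons above. Some members stood above the control library in them. In the young library Irf8 had 86.52 CPM, against 6.382 CPM in removed control cells. Klf4 had 9.663 CPM against 1.153, Gata2 7.433 CPM against 0.7689 and Gata1 16.65 CPM against 1.384. In removed cells of the old library Id2 had 287.0 CPM, against 190.5 CPM in the control. The limits on UMI counts were set on the control library alone and on the young and old libraries jointly. With the removal the median went from 9560 to 9560.5 UMIs in control, from 9719.5 to 10174.5 in young and from 13039 to 12690 in old cells. The removed cells thus lay more at low UMI counts in the young library and more at high counts in the old one. They are not like cells, and with 1 library per condition these differences were not tested.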

How the results depend on the processing

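No paired analysis was possible because each library is the only one of its group, so conditions could not be paired, while comparisons between classes of cells were blocked by library. Alternatives for monocyte-like cells against the highest band, and the band, Elane and thinning settings for monocyte-like cells against the mean of the bands, were chosen after seeing the data. The contrast of basophil and mast-like cells was not run with the settings used above.

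Over the alternatives 145 summary results kept within their limits and 33 moved. Of the values of single members, 455 counted as the same, 19 lost a call, 13 gained one, 71 moved and 9 changed sign. A fold counted as the same when its sign and call were kept, whatever its size. A ratio between libraries counted as the same when it stayed within its counting interval. The causes were not tested, except that fewer genes pass a higher fold. Without TMM the band comparison called 4 members, 5515 genes higher and 1118 lower, with Runx1 at 0.44. Monocyte-like cells against the mean gave 4552 and 644, with Spi1 at 0.11, and the late comparison called 2 members, 817 genes higher and 1939 lower. At a fold of 2, 1707 genes were lower in the band comparison, 906 in monocyte-like cells against the mean and 1023 against the highest band, and in late cells 622 were higher and 289 lower. With Elane bands Runx1 was 0.03. A gate of 3 UMIs gave 1210 genes lower against the highest band. Late cells from 5 per 10000 gave 483 higher and 30 lower, and from 20 called 2 members, with Irf8 at -1.14.

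Leaving out 1 library at a time, the band comparison called 5 to 7 members, 2490 to 2681 genes higher and 2404 to 2737 lower, with Klf4 from -2.15 to 3.85. Monocyte-like cells against the mean called 7 to 8 members, 1169 to 2083 genes higher and 1005 to 1556 lower. Against the highest band they called 5 to 6 members, 1320 to 2141 genes higher and 1199 to 1858 lower, with Id2 from -0.09 to 0.50. The lowest of these gene counts for monocyte-like cells were those without the young library. Late cells called 0 to 1 members, 1128 to 1139 genes higher and 902 to 1205 lower, with Gfi1 called without the young library (-0.60), Runx1 from -0.19 to 0.00, Myb from -0.28 to 0.02 and Gata2 from -1.34 to 0.43. Irf8 in the band comparison lost its call without the control library (-2.04), without the young library (-1.11), with no trimming (-1.70) and with edges 2 and 40 (-1.35), and Gata2 lost its call with DESeq2 (-1.83) and with those edges (-1.54).

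At a minimum of 50 CPM 1 member passed 1.5 times in old over young and 0 in control over young. With UMIs per cell 2 passed in old over control, and at a lower limit of size 5 passed there and 3 in control over young. In the young library a gate of 10 UMIs put 80.8% of Klf4, 43.8% of Irf8 and 63.5% of Gata2 in their classes, and a gate of 3 put 52.6% of Irf8 and 42.0% of Gata2. By Spearman's rho 12 of the 30 genes most like a member stayed.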
